A study of Homo sapiens with 20 samples.

Results

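Chetomin is a fungal epidithiodiketopiperazine, a ring system bridged by sulfur atoms, and this comparison set HCT116 cells given 500 nM chetomin for 5 h against HCT116 cells given the DMSO vehicle at 0.5% for 5 h. HCT116 is an established human colorectal carcinoma cell line. The comparison used 4 of the series' 20 poly(A) RNA libraries, 2 labelled biological replicates of chetomin and 2 of DMSO, and all 14219 genes of the authors' 5 h chetomin table. Its sister libraries at 5 h were treated with 500 nM chaetocin, a related disulfide compound, with 500 nM MeS-chetomin, which the labels describe as the chetomin analog lacking the sulfide bridge, and with 500 nM MeS-chaetocin. All libraries came from the same cell line with no genetic change in the labels, so the treatment was the only labelled difference.

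Epidithiodiketopiperazines react with thiols and can strip zinc from cysteine-rich protein folds. Chetomin is known for disrupting the contact between hypoxia-inducible factor 1 and its coactivator p300, whose CH1 domain is held together by zinc. Cells answer damaged or oxidised proteins through heat shock factor 1, which drives chaperone genes from heat shock elements, through NRF2, which drives antioxidant genes such as HMOX1, and through the integrated stress response, in which ATF4 drives genes such as DDIT3 and TRIB3.

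The libraries did not all look alike. In DMSO replicate 1, the 10 highest genes carried 20.3% of the summed expression values. The 10 highest genes of each other library, which need not be the same, carried 15.4% and 9.42% in chetomin replicates 1 and 2 and 11.3% in DMSO replicate 2. Entries of 5.8S ribosomal RNA, which a poly(A) selection should remove, held 8.46% of chetomin replicate 1 and were listed at 0 in chetomin replicate 2, against 12.2% and 6.05% in DMSO replicates 1 and 2. These entries count in the same sums, so both kinds of share overlap. The part of the 5.8S entries in the results below was not tested. The Spearman correlation was 0.983 between the chetomin replicates and 0.961 between the DMSO replicates. It was taken over the 8361 genes whose mean log2(value + 1) was above that of a value of 5, so lower genes were left out. The smallest p that an exact two-sided permutation test can give in this design is 0.333, so the calls below rest on limma, which pools the spread over genes.

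In chetomin-treated cells HMOX1, the stress-inducible HSP70 genes and immediate-early genes such as NR4A1 and EGR1 were far higher at 5 h, while MYC, MCL1, the Wnt inhibitor DKK1 and the epithelial factor SOX4 were lower. On the log2(value + 1) scale, limma with Benjamini-Hochberg adjustment over all 14219 genes called 2237 genes (15.7% of those tested) at an adjusted p under 0.05. Of these, 998 were higher in chetomin (7.02%) and 1239 were lower (8.71%). The rises reached further than the falls: the 12 largest rises lay between 3.99 and 6.96 on the log2 scale, and no named fall passed 2.70. Scaling moved the balance, since the median log2 difference of all genes was -0.08 here, 0.02 with median-of-ratios scaling and 0.08 on the authors' CPM scale, and the share of calls that were higher was 44.6%, 54.6% and 61.6% under these scalings. For that reason each list's median is set against the median over the whole table. The groups' libraries did not overlap for 8394 genes (59.0%). Lack of overlap was also a condition for naming the largest calls, so for those genes it is part of how they were chosen. Without chetomin replicate 1 the count of calls was 639, with 547 higher and 92 lower, and without chetomin replicate 2 it was 720, with 608 higher and 112 lower. The share of calls that were higher was then 85.6% and 84.4%, so the count of falls rests on both chetomin libraries far more than the count of rises. Without DMSO replicate 1 the count was 3433, with 1170 higher and 2263 lower. A q-value under 0.05 stood beside 4437 genes in the authors' deposited table, 2446 higher and 1991 lower, so there the rises outnumbered the falls.

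**Figure D1:**
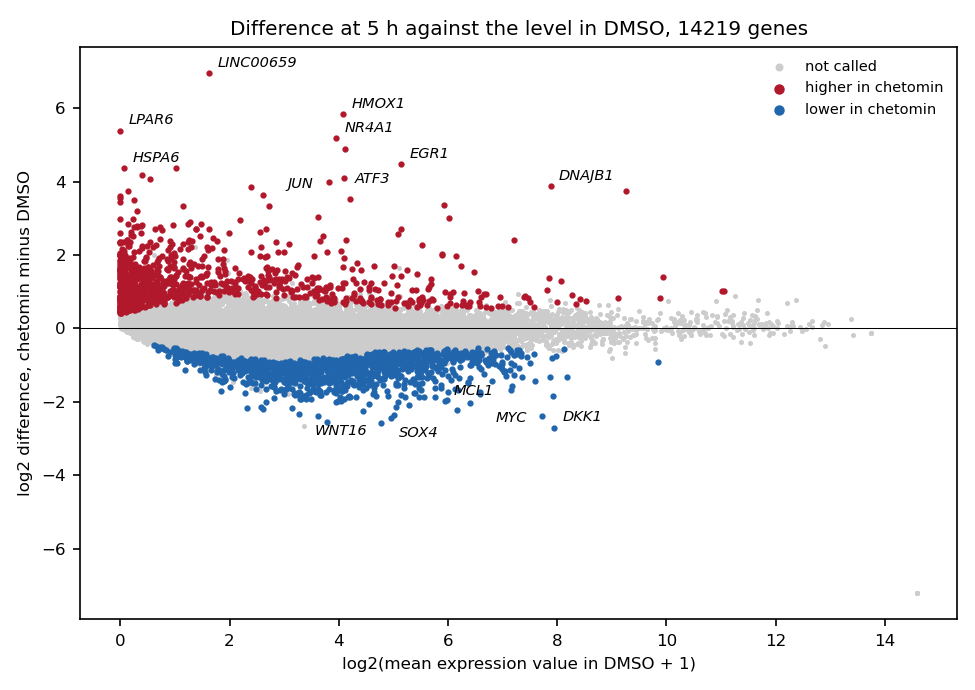
Log2 difference between chetomin and DMSO (y axis) against the log2 of the mean expression value in DMSO plus 1 (x axis) for 14219 genes; red points were called higher in chetomin (998), blue points lower (1239) and grey points were not called. The largest rises, such as LINC00659 (6.96) and HMOX1 (5.85), stand well above the largest falls, such as DKK1 (-2.70); the grey point at the bottom is a 5.8S ribosomal RNA entry.

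The promoters of 6 genes of these groups are shown first, chosen because each holds the core motif of the pathway it is usually assigned to. The windows are RefSeq promoters of build GRCh38.p14, from 250 bases before to 50 bases after a transcript start, 5′ to 3′ on the gene's strand, with matches in capitals. Where a gene had several windows, that with most matches is shown. DNAJB1 (chr19:14518348-14518647, minus strand, 1 of its 3 windows), HSPA1A (chr6:31815293-31815592, plus strand) and HSPA6 (chr1:161524290-161524589, plus strand) are marked for GAANNTTC, the paired core of a heat shock element, with 2, 1 and 2 matches.
DNAJB1: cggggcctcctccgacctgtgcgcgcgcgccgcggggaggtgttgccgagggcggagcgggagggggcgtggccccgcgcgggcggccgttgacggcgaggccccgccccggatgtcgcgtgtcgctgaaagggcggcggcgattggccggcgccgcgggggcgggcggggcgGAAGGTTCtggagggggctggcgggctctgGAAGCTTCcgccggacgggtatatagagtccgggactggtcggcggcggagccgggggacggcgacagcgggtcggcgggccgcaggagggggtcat
HSPA1A: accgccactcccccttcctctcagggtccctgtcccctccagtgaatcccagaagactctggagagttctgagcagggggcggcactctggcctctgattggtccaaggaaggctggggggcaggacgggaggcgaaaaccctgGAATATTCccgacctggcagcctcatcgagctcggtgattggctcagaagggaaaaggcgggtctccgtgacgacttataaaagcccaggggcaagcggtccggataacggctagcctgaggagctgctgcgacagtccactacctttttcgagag
HSPA6: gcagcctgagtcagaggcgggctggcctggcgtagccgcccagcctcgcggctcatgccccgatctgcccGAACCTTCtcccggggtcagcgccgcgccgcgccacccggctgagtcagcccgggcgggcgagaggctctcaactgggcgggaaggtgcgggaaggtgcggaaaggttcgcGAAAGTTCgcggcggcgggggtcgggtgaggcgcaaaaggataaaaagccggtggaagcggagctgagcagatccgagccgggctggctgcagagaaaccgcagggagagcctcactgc
EGR1 (chr5:138465229-138465528, plus strand) is marked for the CArG box bound by serum response factor, with 2 matches. ATF3 (chr1:212565157-212565456, plus strand, 1 of its 2 windows) is marked for TGATGNAA, the C/EBP-ATF response element, with 1 match. MT1X (chr16:56682220-56682519, plus strand) is marked for TGCNCNC, the core of a metal response element, with 4 matches.
EGR1: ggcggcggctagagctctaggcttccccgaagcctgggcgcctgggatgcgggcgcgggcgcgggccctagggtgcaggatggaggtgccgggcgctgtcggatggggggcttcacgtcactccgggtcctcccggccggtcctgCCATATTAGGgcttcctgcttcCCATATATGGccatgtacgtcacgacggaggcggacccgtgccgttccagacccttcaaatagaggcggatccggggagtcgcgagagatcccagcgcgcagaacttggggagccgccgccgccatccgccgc
ATF3: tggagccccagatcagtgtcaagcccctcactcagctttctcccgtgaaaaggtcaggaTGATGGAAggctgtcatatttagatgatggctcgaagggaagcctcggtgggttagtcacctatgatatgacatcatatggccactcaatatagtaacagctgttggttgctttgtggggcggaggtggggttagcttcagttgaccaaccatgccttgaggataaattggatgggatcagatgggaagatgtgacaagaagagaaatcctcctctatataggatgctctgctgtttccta
MT1X: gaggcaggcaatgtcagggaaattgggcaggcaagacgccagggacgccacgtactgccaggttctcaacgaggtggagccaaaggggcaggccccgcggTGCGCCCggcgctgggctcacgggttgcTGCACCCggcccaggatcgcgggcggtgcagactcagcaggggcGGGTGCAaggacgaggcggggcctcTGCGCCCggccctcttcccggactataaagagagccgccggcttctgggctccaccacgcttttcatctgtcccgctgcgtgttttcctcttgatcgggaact
Both strands were searched in the 15393 windows of 10581 tested genes. The motif was not general among the leading genes: no window of HSPH1 or BAG3 held the heat shock core, none of FOS a CArG box, and none of DDIT3, TRIB3 or SESN2 the C/EBP-ATF element. The heat shock core was in 4.75% of all windows, in 5.84% of the windows of all genes called higher, in 9 of 19 windows (47.4%) of the 13 risen genes of the 4 chaperone lists that had a window, and in 10 of 57 windows (17.5%) of their 42 uncalled genes. A CArG box was in 1.1% of all windows, in 1.91% of those of genes called higher and in 4 of 17 windows (23.5%) of the EGR and serum response factor target list. The C/EBP-ATF element was in 1.91% of all windows, in 2.25% of those of genes called higher and in 7 of 32 windows (21.9%) of the integrated stress response list. It was also in 7 of 21 windows (33.3%) of the aminoacyl-tRNA synthetase list, in which no gene was called. The metal response core was in 62.9% of all windows, so a match there sets few genes apart.

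The inducible HSP70 genes were higher in chetomin, and most other chaperone genes were not called. Of 15 measured HSP70 and HSP110 genes, 6 rose and none fell, with a median log2 difference 0.48 above that of all genes. HSPA1A, a stress-inducible HSP70 whose promoter is printed above, had expression values of 214 and 209 in chetomin, against 17.2 and 17.5 in DMSO. Its near-identical copy HSPA1B had 8374 and 8124 in chetomin, against 571 and 650 in DMSO; reads of the pair can be assigned to either, so the split between them is uncertain. HSPA6, an inducible HSP70 that is close to silent in unstressed cells, had 19.0 and 22.8 in chetomin, against 0.06 and 0.04 in DMSO. No library of either group overlapped the other for these genes. The log2 differences were 3.54 ± 0.15 (SE, limma adjusted p = 3.94e-05) for HSPA1A, 3.76 ± 0.23 for HSPA1B and 4.38 ± 0.24 for HSPA6. HSPH1, an HSP110 that swaps nucleotide on HSP70, rose by 2.42 ± 0.21 and HSPA8, the constitutive HSP70, by 1.03 ± 0.24 (adjusted p = 0.0275).

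HSP70 works with J-domain and BAG co-chaperones, and single members of those families rose too, beside 7.02% of all genes called higher. DNAJB1, the J-domain partner of inducible HSP70, had 3381 and 3435 in chetomin, against 199 and 271 in DMSO, a log2 difference of 3.87 ± 0.21 (limma adjusted p = 0.000134). BAG3, which links HSP70 to autophagy, had 606 and 631 in chetomin, against 54.9 and 64.3 in DMSO, a log2 difference of 3.36 ± 0.16 (adjusted p = 6.29e-05). Neither gene overlapped between the groups. Of 19 DNAJ genes 5 rose and none fell, but the median was 0.12 below that of all genes (0.01 above without chetomin replicate 1), so the rise was in DNAJB1, DNAJB9 (2.71), DNAJA4 (1.60), DNAJB4 (1.34) and DNAJA1 (0.80) and not across the family. BAG3 was the only riser among 12 BAG and small heat shock genes, and STIP1, which bridges HSP70 to HSP90, the only riser among 17 HSP90-machine genes (0.91 ± 0.18, adjusted p = 0.0152). Both counts were near the share of all genes called higher, so nothing is read from them about these families. On the authors' CPM scale 3 BAG and small heat shock genes and 6 HSP90-machine genes were called higher, and without DMSO replicate 1 the counts were 4 and 2. Without chetomin replicate 1 or 2 no HSP90-machine gene was called, and the DNAJ genes called higher numbered 2 and 3. HSF1 itself, the transcription factor, had 103 and 87.3 in chetomin, against 79.4 and 82.3 in DMSO, and was not called (adjusted p = 0.369). Among ubiquitin and autophagy genes 3 of 24 rose and 1 fell, led by ZFAND2A (2.72 ± 0.18), an arsenite-inducible proteasome-associated protein. The calls of HSPA8, STIP1, DNAJA4, DNAJA1 and DNAJB4 ended without chetomin replicate 1 (adjusted p between 0.0572 and 0.435) and, except for DNAJA4, without chetomin replicate 2 (between 0.0999 and 0.425). The call of HSPA8 also ended with median-of-ratios scaling (0.0578).

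HMOX1 had the largest rise of any protein-coding gene that DMSO cells expressed at more than 5. Heme oxygenase 1 breaks down heme and is a target of NRF2. It had 977 and 963 in chetomin, against 15.1 and 16.7 in DMSO, and the groups lay far apart. The log2 difference was 5.85 ± 0.15 (limma adjusted p = 5.07e-06). Other NRF2 targets rose less: OSGIN1, an oxidative stress-induced growth inhibitor, by 2.08 ± 0.19, GCLM, the modifier subunit of glutamate-cysteine ligase, by 1.78 ± 0.20, and the transporter ABCC3 by 1.56 ± 0.25. Of 26 measured targets 8 rose and none fell, with a median 0.50 above that of all genes. NQO1, often taken as a standard NRF2 readout, had 432 and 476 in chetomin, against 406 and 391 in DMSO, and was not called (log2 difference 0.19, adjusted p = 0.483). HMOX2, the constitutive heme oxygenase, had 74.7 and 70.5 in chetomin, against 129 and 98.5 in DMSO, and fell by 0.63 ± 0.18 (adjusted p = 0.0498). That call ended with a pseudocount of 0.1 (0.0529), with median-of-ratios scaling (0.151), with a spread shared by the 10 libraries of 5 h (0.0671), on the authors' CPM scale (0.2), without the mean-variance trend (0.0904) and without chetomin replicate 1 (0.32) or 2 (0.352). TXNRD1, thioredoxin reductase 1, had 267 and 293 in chetomin, against 101 and 209 in DMSO, and also missed the threshold (0.94, adjusted p = 0.0773). TXNRD1 was called higher with median-of-ratios scaling (0.0432) and without DMSO replicate 1 (0.048) or 2 (0.0091). None of 22 thioredoxin and peroxiredoxin genes was called by limma, and 4 had an unadjusted p under 0.05. NFE2L2, which encodes NRF2, fell by 0.72 on the log2 scale (adjusted p = 0.0324), a call that ended on the authors' CPM scale (0.149), without the mean-variance trend (0.0577) and without chetomin replicate 1 (0.339) or 2 (0.213). The call of ABCC3 ended without chetomin replicate 1 (0.0855) and 2 (0.134). Without chetomin replicate 1 or 2, 3 and 4 of the 26 targets were called.

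No metallothionein or zinc transporter gene was called higher in the comparison of all 4 libraries. Metallothioneins bind zinc and are switched on by MTF1 when free zinc goes up. MT2A had 728 and 677 in chetomin, against 984 and 729 in DMSO (log2 difference -0.27, limma adjusted p = 0.426). MT1E had 653 and 672 in chetomin, against 1025 and 744 in DMSO (-0.40, adjusted p = 0.243). MT1X, whose promoter is printed above, had 68.6 and 76.2 in chetomin, against 126 and 101 in DMSO, and fell by 0.63 ± 0.17 (adjusted p = 0.0446). These values lay lower in chetomin in every library, although the MT1 genes are near-identical copies that can share reads. MT1F had 5.19 and 2.78 in chetomin, against 4.70 and 3.61 in DMSO, with overlap (-0.08, adjusted p = 0.885). MTF1 itself had 6.93 and 6.77 in chetomin, against 3.24 and 4.55 in DMSO, a log2 difference of 0.69 ± 0.26 (adjusted p = 0.11), and was called higher on the authors' CPM scale (0.0159), with median-of-ratios scaling (0.0465) and without DMSO replicate 2 (0.0435). Without that DMSO library MT2A (0.0428) and MT1E (0.0242) were called lower. The zinc exporter SLC30A1 had 1.20 and 1.51 in chetomin, against 4.40 and 6.08 in DMSO, and fell by 1.40 ± 0.25 (adjusted p = 0.011). None of the 6 metal response genes rose and 2 fell. Of all genes 7.02% were called higher and 8.71% lower, so few rises would be expected in lists this small. Among 17 further zinc transporters SLC39A7, which releases zinc from the endoplasmic reticulum, fell by 1.12 ± 0.16 and none rose, but 1 was called higher with a pseudocount of 0.1, with a filter on mean values under 1, with median-of-ratios scaling and without DMSO replicate 1, and 3 without DMSO replicate 2. The call of MT1X ended with median-of-ratios scaling (0.136), on the authors' CPM scale (0.278), without the mean-variance trend (0.0836) and with the shared spread (0.0571). The 3 calls also ended without chetomin replicate 1 (between 0.0686 and 0.408) or 2 (between 0.0745 and 0.245).

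Immediate-early genes, which respond to signalling without new protein synthesis, stood high at 5 h. NR4A1, an orphan nuclear receptor, had 592 and 540 in chetomin, against 13.99 and 15.07 in DMSO, a log2 difference of 5.19 ± 0.15 (limma adjusted p = 7.05e-06). EGR1, a zinc finger factor driven by serum response factor, had 806 and 754 in chetomin, against 30.3 and 38.6 in DMSO, a log2 difference of 4.47 ± 0.17 (adjusted p = 2.84e-05). FOSB, an AP-1 subunit, had 43.1 and 37.7 in chetomin, against 0.79 and 1.25 in DMSO, a log2 difference of 4.36 ± 0.24. Every chetomin library was above every DMSO library for these genes. JUN, the partner of FOS proteins, had 226 and 221 in chetomin, against 12.2 and 14.2 in DMSO (3.99 ± 0.16), and FOS rose by 3.33 ± 0.20. Of 14 FOS and JUN family genes 9 rose and none fell, with a median 1.11 above that of all genes, the highest of the lists with more than 6 members; the family also holds ATF3. Of 19 EGR factors and serum response factor targets 10 rose and MCL1 alone fell, with a median 0.77 above all genes. The synaptic activity gene ARC had 76.0 and 74.7 in chetomin, against 3.75 and 4.77 in DMSO (3.87 ± 0.19). SRF itself had 25.2 and 22.7 in chetomin, against 21.1 and 26.4 in DMSO. NR4A3 rose by 0.63 at values of 1.05 and 0.84 in chetomin, against 0.23 and 0.28 in DMSO, a call that ended without DMSO replicate 1 (0.063) or 2 (0.0578), without chetomin replicate 1 (0.0893) and without the trend (0.0629). NR4A2 was not called, but was higher with median-of-ratios scaling (0.0385), on the authors' CPM scale (0.0478) and without DMSO replicate 2 (0.0452). Without chetomin replicate 1 or 2, 6 genes of the FOS and JUN family were called in each case.

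Negative feedback regulators of MAP kinase signalling split. DUSP2, a nuclear phosphatase for ERK and p38, had 480 and 539 in chetomin, against 17.99 and 14.54 in DMSO, and rose by 4.89 ± 0.17 (limma adjusted p = 1.67e-05) with no overlap. DUSP8 rose by 1.75 ± 0.29 and DUSP1 by 1.04 ± 0.21. In contrast DUSP7 (-1.75 ± 0.25), DUSP5 (-1.22 ± 0.17), PHLDA1 (-1.22 ± 0.17) and the receptor kinase inhibitor SPRY2 (-1.12 ± 0.21) fell. Of 17 feedback genes 3 rose and 6 fell, with a median 0.67 below that of all genes, which was 0.41 below without DMSO replicate 2 and 0.40 below without chetomin replicate 2. On leaving out chetomin replicate 1 or replicate 2 the list held 1 rise and no fall. DUSP6, the feedback phosphatase for ERK, had 22.0 and 17.3 in chetomin, against 27.6 and 45.4 in DMSO (adjusted p = 0.0683), and was called lower without DMSO replicate 1 (0.0204). Kruppel-like factors also split: KLF10 (1.69) and KLF15 (0.99) rose while KLF2 (-1.38) and KLF4 (-1.03) fell, of 13 measured. None of 10 ERBB receptors and ligands was called by limma, with 1 at an unadjusted p under 0.05. Apart from DUSP2 and KLF10, these calls ended without chetomin replicate 1 (between 0.0585 and 0.248) or 2 (between 0.0581 and 0.241), and that of KLF2 on the authors' CPM scale (0.0521).

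**Figure D2:**
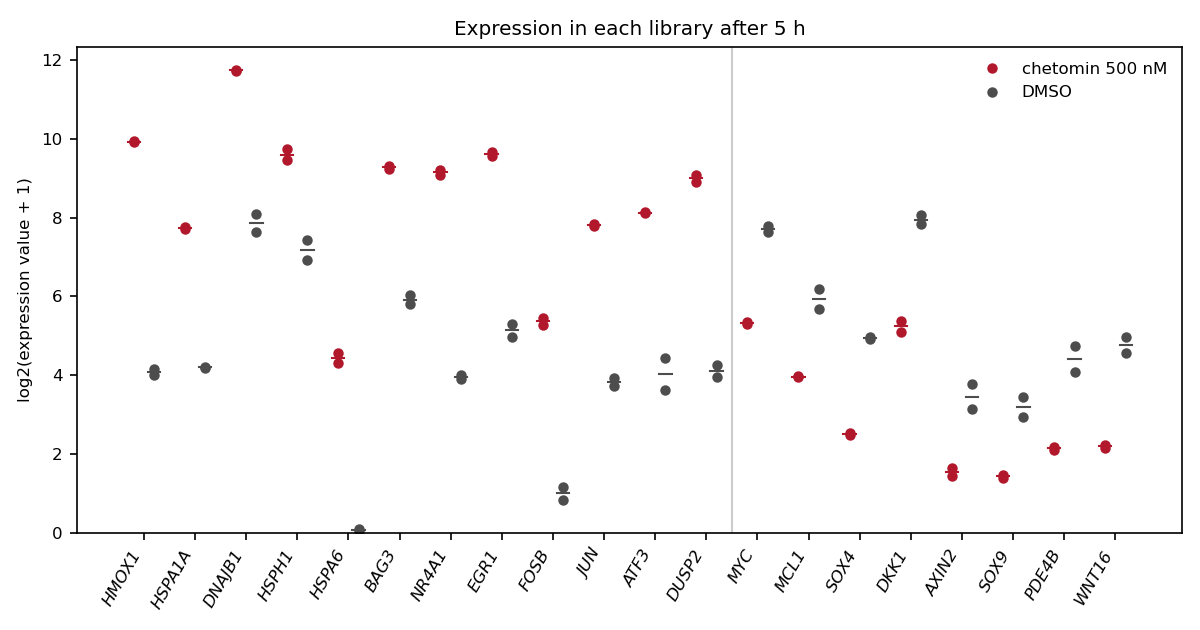
Log2 of the expression value plus 1 (y axis) in each of the 2 chetomin libraries (red, left) and 2 DMSO libraries (grey, right) for 12 genes that rose and, right of the line, 8 that fell; short bars are group means. Many of these genes were chosen as calls without overlap, and the DMSO points of AXIN2, PDE4B and ATF3 lie further apart than their chetomin points.

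ATF3, DDIT3 and TRIB3 led the rises in the integrated stress response list. ATF3, a stress-induced repressor that also belongs to the AP-1 family, had 277 and 281 in chetomin, against 11.4 and 20.8 in DMSO, a log2 difference of 4.09 ± 0.26 (limma adjusted p = 0.000231). DDIT3, which encodes CHOP, had 185 and 212 in chetomin, against 37.6 and 28.1 in DMSO, a log2 difference of 2.57 ± 0.19. TRIB3, a pseudokinase induced by CHOP, had 213 and 232 in chetomin, against 45.1 and 45.5 in DMSO, a log2 difference of 2.27 ± 0.15. None of these overlapped. DDIT4, an inhibitor of mTORC1, rose by 1.99 ± 0.15. Of 23 genes 9 rose and 2 fell, CEBPB (-1.11 ± 0.17) and the amino acid transporter SLC38A2 (-0.93 ± 0.22), with a median 0.35 above that of all genes. ATF4 mRNA, whose protein output is set by translation, had 417 and 428 in chetomin, against 626 and 577 in DMSO (-0.51, adjusted p = 0.0787), and was called lower without DMSO replicate 1 (0.0342) or 2 (0.026). Without chetomin replicate 1 or 2, 4 genes of the list were called higher in each case and none lower, the calls of CHAC1, PPP1R15A, SESN2 and STC2 among those that ended. None of 20 aminoacyl-tRNA synthetase genes, many of them ATF4 targets, was called by limma, and 3 had an unadjusted p under 0.05, but 3 were called higher without DMSO replicate 2; KARS1 had 168 and 174 in chetomin, against 155 and 180 in DMSO.

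Endoplasmic reticulum stress genes rose in part. DNAJB9, a luminal J-domain protein, had 40.6 and 39.6 in chetomin, against 4.51 and 6.20 in DMSO, a log2 difference of 2.71 ± 0.21 (limma adjusted p = 0.000687). XBP1, a transcription factor of the unfolded protein response, had 225 and 250 in chetomin, against 54.2 and 62.0 in DMSO, a log2 difference of 2.01 ± 0.16. HERPUD1, which serves protein disposal from the compartment, rose by 1.48 ± 0.16. HSPA5, the main luminal HSP70, had 484 and 546 in chetomin, against 314 and 337 in DMSO, a smaller log2 difference of 0.66 ± 0.17 (adjusted p = 0.0355). Of 24 genes 6 rose and none fell, with a median 0.34 above all genes, and 3 rose without chetomin replicate 1 or 2. The calls of CEBPB, SLC38A2, HSPA5 and the chaperone CANX (1.04) ended without chetomin replicate 1 (between 0.123 and 0.304) or 2 (between 0.0779 and 0.408). The call of CANX also ended with the shared spread (0.194), and those of SLC38A2 (0.0573) and HSPA5 (0.0591) without the trend.

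MYC, the growth-promoting transcription factor that is highly expressed in colorectal carcinoma lines, fell. It had 39.8 and 38.2 in chetomin, against 198 and 220 in DMSO, with no overlap, a log2 difference of -2.39 ± 0.15 (limma adjusted p = 0.000231). MXD1, which competes with MYC for its partner MAX, had 7.15 and 6.92 in chetomin, against 0.78 and 0.90 in DMSO, and rose by 2.13 ± 0.23. No other of the 12 network genes was called. Among 30 MYC targets in ribosome biogenesis 3 fell and none rose, near the 8.71% of all genes called lower: RRS1 (-1.77 ± 0.16), POLR1C (-1.56 ± 0.16) and NOP16 (-1.34 ± 0.16). The list's median lay 0.10 below that of all genes (0.03 below on the authors' CPM scale). Without DMSO replicate 1 there were 7 falls and 1 rise, and without DMSO replicate 2 there were 7 falls and 2 rises. Of 18 polyamine and nucleotide synthesis genes UMPS, an enzyme of pyrimidine synthesis, fell (-1.07 ± 0.17), a call that ended without chetomin replicate 1 (0.13) or 2 (0.0766). None of 40 cytosolic ribosomal protein genes was called by limma and none had an unadjusted p under 0.05, with a median 0.17 above all genes. That median rests on single DMSO libraries: it was 0.47 above, with 3 genes called higher, without DMSO replicate 1, and 0.14 below without DMSO replicate 2.

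Some Wnt regulators and transcription factors of the epithelium were lower and others were not called, beside 8.71% of all genes called lower. DKK1, a secreted Wnt inhibitor and Wnt target, had 40.8 and 33.3 in chetomin, against 227 and 265 in DMSO, the largest named fall at -2.70 ± 0.17 (limma adjusted p = 0.000234). WNT16, a ligand, had 3.45 and 3.70 in chetomin, against 22.6 and 30.1 in DMSO, a log2 difference of -2.57 ± 0.24. AXIN2, a direct target of beta-catenin, had 2.12 and 1.73 in chetomin, against 7.78 and 12.8 in DMSO, a log2 difference of -1.91 ± 0.29. None of these overlapped. Of 25 pathway genes and targets 6 fell and none rose, also RNF43 (-1.17), which removes Wnt receptors, and the receptors FZD2 (-0.86) and FZD7 (-0.75). The list's median was only 0.14 below all genes, and CTNNB1, which encodes beta-catenin, had 83.1 and 86.9 in chetomin, against 81.0 and 116 in DMSO, called lower only without DMSO replicate 1 (0.0378). Among 15 epithelial transcription factors 7 fell and 1 rose, with a median 0.59 below all genes. Leaving out chetomin replicate 1, or replicate 2, left 2 Wnt genes and 1 epithelial factor called lower in each case, and without DMSO replicate 2 the Wnt median was 0.04 above all genes. SOX4, a factor of progenitor cells, had 4.63 and 4.76 in chetomin, against 30.5 and 29.4 in DMSO (-2.44 ± 0.20), and SOX9, a crypt factor, had 1.61 and 1.78 in chetomin, against 6.60 and 9.81 in DMSO (-1.75 ± 0.27). The intestinal factor CDX2 fell by 1.44 ± 0.24, while OVOL1, a zinc finger factor of epithelia, rose by 2.63 ± 0.20. CDX2 was also the only one of 8 measured colorectal epithelium markers to be called. The calls of AXIN2, SOX9, CDX2, RNF43, FZD2 and FZD7 ended without chetomin replicate 1 (between 0.0687 and 0.333) or 2 (between 0.08 and 0.31), and those of FZD2 and FZD7 also on the authors' CPM scale (0.0609 and 0.0758) and without DMSO replicate 2 (0.0758 and 0.0764). That of FZD7 ended with a pseudocount of 0.1 (0.0643) and with a filter on mean values under 1 (0.0566).

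Other large falls came from genes outside these lists. PDE4B, a phosphodiesterase that degrades cyclic AMP, had 3.55 and 3.29 in chetomin, against 15.8 and 25.7 in DMSO, a log2 difference of -2.26 ± 0.28 (limma adjusted p = 0.00282). TMEM177, a factor of cytochrome c oxidase assembly, had 4.63 and 5.98 in chetomin, against 31.9 and 30.4 in DMSO (-2.36 ± 0.21). GEMIN7, a subunit of the complex that assembles spliceosomal ribonucleoproteins, had 13.2 and 15.2 in chetomin, against 84.1 and 57.3 in DMSO (-2.22 ± 0.22). The noncoding FOXD1-AS1 fell by 2.55 ± 0.36, with 1.08 and 1.35 in chetomin, against 17.5 and 8.09 in DMSO, where the libraries lay well apart.

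Notch and BMP genes moved both ways, beside 7.02% of all genes called higher and 8.71% called lower. NRARP, a Notch target that dampens Notch signalling, had 73.7 and 75.7 in chetomin, against 4.93 and 5.30 in DMSO, a log2 difference of 3.63 ± 0.18 (limma adjusted p = 7.46e-05). HEY1, another Notch target, rose by 1.84 ± 0.20, with 3.51 and 4.18 in chetomin, against 0.39 and 0.32 in DMSO. Of 15 Notch genes 3 rose and 1 fell, and the median lay 0.19 below all genes, or 0.02 below on the authors' CPM scale, 0.10 below without DMSO replicate 1 and 0.11 below without DMSO replicate 2. BMP4, a secreted differentiation signal, had 62.1 and 70.6 in chetomin, against 228 and 256 in DMSO (-1.85 ± 0.16), and the BMP targets BAMBI (-1.47) and ID2 (-0.95) fell too. Of 19 TGF beta and BMP genes 2 rose and 3 fell. Among 15 junction genes CLDN6 rose to 5.18 and 7.18 in chetomin, against 0.21 and 0.08 in DMSO (2.64 ± 0.23), and CLDN4 fell by 1.33 ± 0.18. Among 17 Hippo pathway genes the YAP targets CCN1 (2.37) and CCN2 (1.45) rose and AJUBA (-0.90) fell. The calls of BAMBI, ID2, CLDN4 and AJUBA ended without chetomin replicate 1 (between 0.0606 and 0.254) or 2 (between 0.0522 and 0.331), that of CCN2 without chetomin replicate 1 (0.0545) and that of AJUBA without DMSO replicate 2 (0.0553).

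Calls among hypoxia pathway genes were falls, and HIF targets were called both ways, beside 7.02% of all genes called higher and 8.71% called lower. The labels used here name no oxygen level for the cultures. HIF1A had 22.9 and 21.3 in chetomin, against 19.8 and 34.4 in DMSO (-0.23, limma adjusted p = 0.587), and was called lower without DMSO replicate 1 (0.0328). EP300, which encodes p300, had 5.65 and 3.69 in chetomin, against 3.52 and 5.94 in DMSO, and its relative CREBBP had 6.03 and 5.58 in chetomin, against 5.03 and 7.73 in DMSO. The groups overlapped for all 3 genes. Of 9 pathway genes 3 fell and none rose, with a median 0.56 below all genes, between 0.41 and 0.64 below over the alternatives. The falls were VHL (-0.96 ± 0.18), which marks HIF for destruction, CITED2 (-0.95 ± 0.24), which competes for p300, and the prolyl hydroxylase EGLN2 (-0.82 ± 0.18). Of 23 HIF targets 5 rose and 2 fell, with a median 0.21 above all genes, which was 0.04 on the authors' CPM scale, 0.08 without DMSO replicate 1 and 0.10 without chetomin replicate 1. VEGFA, an angiogenic factor, had 37.4 and 35.9 in chetomin, against 15.8 and 20.8 in DMSO, and rose by 0.98 ± 0.19 (adjusted p = 0.0158). ANGPTL4 had 15.3 and 15.1 in chetomin, against 3.09 and 2.35 in DMSO (2.13 ± 0.24), and ADM, which encodes adrenomedullin, had 7.40 and 7.68 in chetomin, against 20.3 and 22.9 in DMSO (-1.40 ± 0.20). Risers such as DDIT4 and STC2 stand in the integrated stress response list as well. None of 20 glycolysis genes was called by limma, with 4 at an unadjusted p under 0.05, but 5 were called higher on the authors' CPM scale, 3 lower without DMSO replicate 1, and 3 higher and 1 lower without DMSO replicate 2. Leaving out chetomin replicate 1, or replicate 2, left 2 HIF targets called higher in each case and no gene of the HIF pathway or target lists lower. The calls of VHL, CITED2, EGLN2, VEGFA, ADM, STC2 (1.05) and the demethylase KDM3A (-1.06) ended without chetomin replicate 1 (between 0.0895 and 0.442) or 2 (between 0.0738 and 0.27). On the authors' CPM scale those of CITED2 (0.0663), EGLN2 (0.065) and VEGFA (0.069) ended, and STC2 and CITED2 missed the threshold with the shared spread (0.0794 and 0.0523). CITED2 also did so without DMSO replicate 2 (0.0556), EGLN2 with median-of-ratios scaling (0.0506) and STC2 without the trend (0.057).

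Calls among splicing regulators were falls, and calls in the chromatin lists had no common direction. Of all genes 7.02% were called higher and 8.71% lower. Of 19 CLK kinases and splicing regulators 7 fell and none rose, with a median 0.33 below all genes, and 1 fell on leaving out chetomin replicate 1 or replicate 2, while 4 fell and 1 rose on the authors' CPM scale. LUC7L3, a U1-associated splicing factor, had 68.0 and 72.7 in chetomin, against 220 and 164 in DMSO (-1.42 ± 0.18, limma adjusted p = 0.00333). SRSF11 (-1.27 ± 0.19), the kinase CLK2 (-1.01 ± 0.21) and the cyclin CCNL1 (-0.95 ± 0.19) followed. Of 18 P-TEFb and BET genes 2 fell and none rose, and 6 fell without DMSO replicate 1, with a median 0.40 below all genes (0.23 below without DMSO replicate 1): CDK9, the kinase that releases paused polymerase, had 19.8 and 20.8 in chetomin, against 33.7 and 33.9 in DMSO (-0.71 ± 0.17), and MEPCE, which caps the 7SK RNA that holds it inactive, had 15.1 and 14.4 in chetomin, against 39.2 and 40.5 in DMSO (-1.38 ± 0.17). None of 14 lysine acetyltransferase genes was called by limma, and 2 had an unadjusted p under 0.05. Of 15 deacetylase genes HDAC4 (1.40), SIRT6 (0.83) and HDAC6 (0.82) rose and SIRT1 (-1.21) fell. H3K9 methyltransferases are the enzymes for which chaetocin is best known: SUV39H1 had 9.42 and 10.1 in chetomin, against 15.3 and 16.0 in DMSO, and was not called (adjusted p = 0.0746) except with the shared spread (0.0234) and without DMSO replicate 1 (0.0469), SUV39H2 fell by 0.89 ± 0.22, and the HP1 gene CBX5 rose by 1.10 ± 0.19, of 15 genes. Without chetomin replicate 1 or 2 the calls other than LUC7L3 and MEPCE ended (adjusted p between 0.0596 and 0.366, and between 0.0652 and 0.262), apart from HDAC4 without replicate 2. On the authors' CPM scale SUV39H2 (0.0729), CLK2 (0.0763), CDK9 (0.059) and HDAC4 (0.216) were not called. CDK9 also missed the threshold with median-of-ratios scaling (0.0539) and SUV39H2 without DMSO replicate 2 (0.0602).

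Survival genes and p53 targets were called in both directions, beside 15.7% of all genes called. Of 14 BCL2 family genes 2 rose, 2 fell and 10 were not called, with 1 fall and no rise on leaving out chetomin replicate 1 or replicate 2. MCL1, a short-lived antiapoptotic protein, had 14.7 and 14.4 in chetomin, against 50.3 and 71.6 in DMSO, and fell by 1.97 ± 0.21 (limma adjusted p = 0.00144). BBC3, which encodes the killer protein PUMA, had 17.2 and 20.4 in chetomin, against 9.43 and 7.33 in DMSO, and rose by 1.08 ± 0.22. BCL2L11, which encodes BIM, rose by 1.14 ± 0.29 but had the opposite sign on the authors' CPM scale (-0.35, adjusted p = 0.465), so its direction differed between the scalings. BAK1 fell by 0.97 ± 0.18. Of 26 p53 targets 2 rose, 4 fell and 20 were not called, beside 7.02% of all genes called higher and 8.71% called lower. Their median lay 0.17 below all genes, between 0.11 and 0.27 below over the alternatives, and 9 fell without DMSO replicate 1 and none without chetomin replicate 1 or 2. CDKN1A, the p21 cell-cycle inhibitor that HCT116 cells induce through wild-type p53, had 31.3 and 29.3 in chetomin, against 52.4 and 56.0 in DMSO (-0.82 ± 0.16), and CDKN1B, the p27 inhibitor, fell by 1.68 ± 0.23. SESN1 (-1.46), PLK2 (-1.25) and PHLDA3 (-1.20) fell, while SESN2 (1.33), which the integrated stress response also drives, rose. The calls in these sentences other than MCL1 ended without chetomin replicate 1 (between 0.0822 and 0.368) or 2 (between 0.0635 and 0.273), and that of BCL2L11 with the shared spread (0.148).

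Inflammatory, sterol and cell-cycle lists held calls in part of their members, beside 7.02% of all genes called higher and 8.71% called lower. Of 15 NF-kB genes 1 rose and 2 fell, NFKBIA, the main inhibitor, by 1.40 ± 0.24 on the log2 scale. Of 21 interferon response genes 2 rose and 3 fell, led by TRIM22 (1.38 ± 0.17), at 2.26 and 2.16 in chetomin, against 0.32 and 0.16 in DMSO, and IRF1 (-1.62 ± 0.25), at 2.26 and 2.70 in chetomin, against 8.66 and 10.8 in DMSO. INSIG1, which retains the sterol sensor in the endoplasmic reticulum, rose to 89.5 and 93.5 in chetomin, against 13.9 and 19.1 in DMSO (2.42 ± 0.19, limma adjusted p = 0.000687), and of 22 cholesterol genes 2 rose and 1 fell. ZFP36, which speeds decay of AU-rich mRNAs, rose to 75.3 and 71.5 in chetomin, against 10.6 and 13.6 in DMSO (2.51 ± 0.18), while TOB1 (-1.50) and ZFP36L2 (-1.21), also of mRNA decay, fell. Of 25 mitosis genes 4 fell and none rose, with a median 0.29 below all genes (0.11 below without DMSO replicate 2), and the count of falls lay between 0 on the authors' CPM scale and 12 without DMSO replicate 1. Of 25 replication genes 2 fell. Of 34 proteasome genes 2 fell and none rose, and on the authors' CPM scale 3 rose and none fell, and without DMSO replicate 1 there were 6 rises and 3 falls. Of 13 mitochondrially encoded genes 2 rose, with a median 0.59 above all genes. None was called with median-of-ratios scaling or with the shared spread, and 8 rose on the authors' CPM scale. The calls of NFKBIA, IRF1, TOB1 and ZFP36L2 ended without chetomin replicate 1 (between 0.0838 and 0.227) or 2 (between 0.0652 and 0.176).

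**Figure D3:**
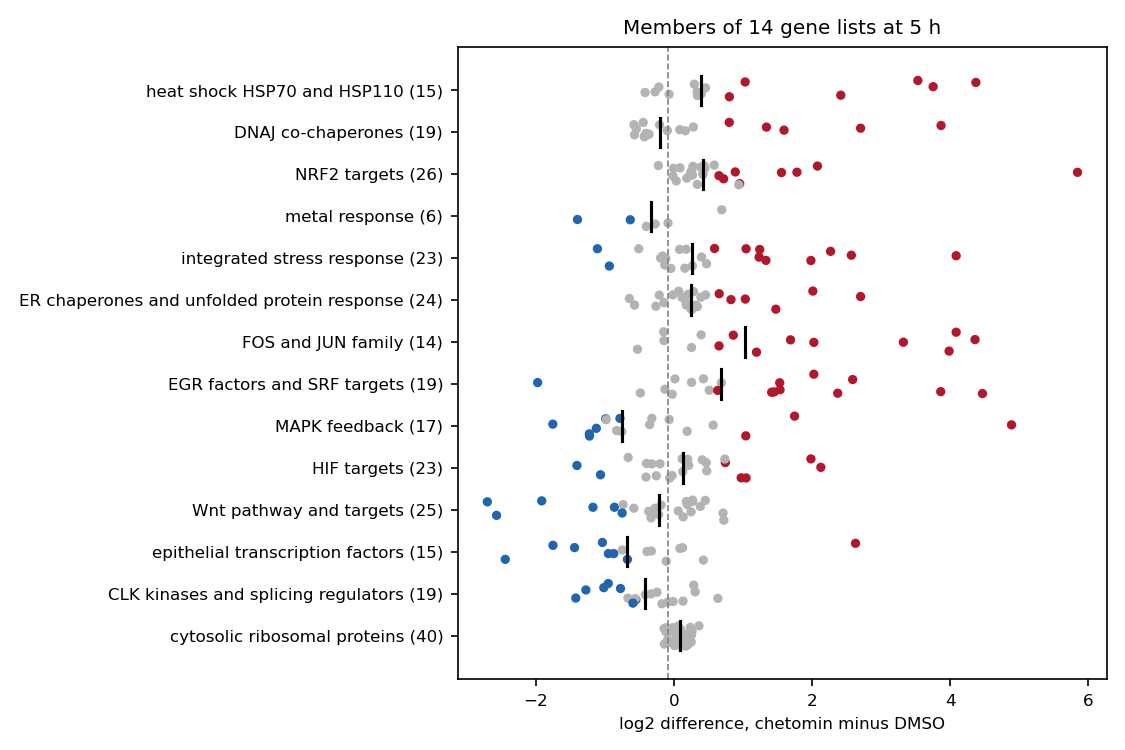
Log2 differences between chetomin and DMSO (x axis) of the measured members of 14 gene lists (rows, number of members in brackets); red and blue points were called higher and lower in chetomin, grey points were not called, black bars are list medians and the dashed line is the median of all genes (-0.08). The FOS and JUN median lies 1.11 above the dashed line and that of the MAPK feedback genes 0.67 below it, or 0.40 below without chetomin replicate 2.

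Many risen genes had low values in DMSO. The 998 risen genes had a median expression value of 3.57 in chetomin, against 0.63 in DMSO, and the 1239 fallen genes had a median of 6.30 in chetomin, against 15.7 in DMSO. Genes with a DMSO mean above 0 to 1 gave 506 of the 998 rises, and 68 came from genes listed at 0 in both DMSO libraries. Those 68 are 76.4% of 89 listed genes, none of which could fall, while 10 genes were listed at 0 in both chetomin libraries. The filter behind the authors' table is not stated in the sources used here, and a gene that was low in every sample may not be listed, so the shares of the lowest classes may be set in part by how genes came to be listed, and nothing is read from them. LPAR6, a lysophosphatidic acid receptor, had 39.1 and 42.9 in chetomin and was listed at 0 in both DMSO libraries. LINC00659, a long noncoding RNA, had 346 and 374 in chetomin, against 3.16 and 1.02 in DMSO, the largest log2 difference of all at 6.96 ± 0.31 (limma adjusted p = 4.73e-05). For 51 risen genes the mean was under 1 in DMSO and at least 5 in chetomin, of which 20 were protein-coding and 23 antisense or intergenic long noncoding genes. A further entry, SDHD under a second identifier, rose by 4.07 with 35.4 and 13.9 in chetomin, against 0.92 and 0 in DMSO; it overlaps the SDHD gene, so its reads are uncertain, and its call ended with the shared spread (0.0532). A pseudogene of the IFITM family, IFITM3P2, had 24.5 and 21.4 in chetomin, against 0.26 and 0.39 in DMSO (4.18 ± 0.24), and can share reads with its parent genes.

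The shares of genes called also differed between kinds of gene. Antisense genes rose in 126 of 483 cases (26.1%) and intergenic long noncoding genes in 84 of 331 (25.4%), against 674 of 12556 protein-coding genes (5.37%). Falls were at 6.63%, 4.83% and 9.19% in these classes. The sources used here name no strand setting for the counting, so an antisense gene and its partner cannot be told apart. The antisense and intergenic classes had low values, with medians of 1.24 and 1.03 in DMSO. Of all genes with a DMSO mean above 0 to 1, 23.9% rose. A low gene may be listed only through a group where it is high, so nothing is read from the rises of these noncoding classes. Among protein-coding genes, those with 1, 2 or 3 exons fell in 20.6%, 24.2% and 20.4% of cases, against 7.87% of genes with 4 or more exons. They rose in 10.6%, 8.05% and 8.46% of cases, against 5.01%. The share that fell went down with gene length, 13.1% in the shortest quintile by genomic span and 4.74% in the longest, and the share that rose went down as well, 7.68% and 2.79%. Numbered ZNF genes fell in 59 of 349 cases (16.9%) and rose in 23 (6.59%). These shares describe genes of 1 set of 4 libraries, and level differs between the classes, so no test is given.

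**Figure D4:**
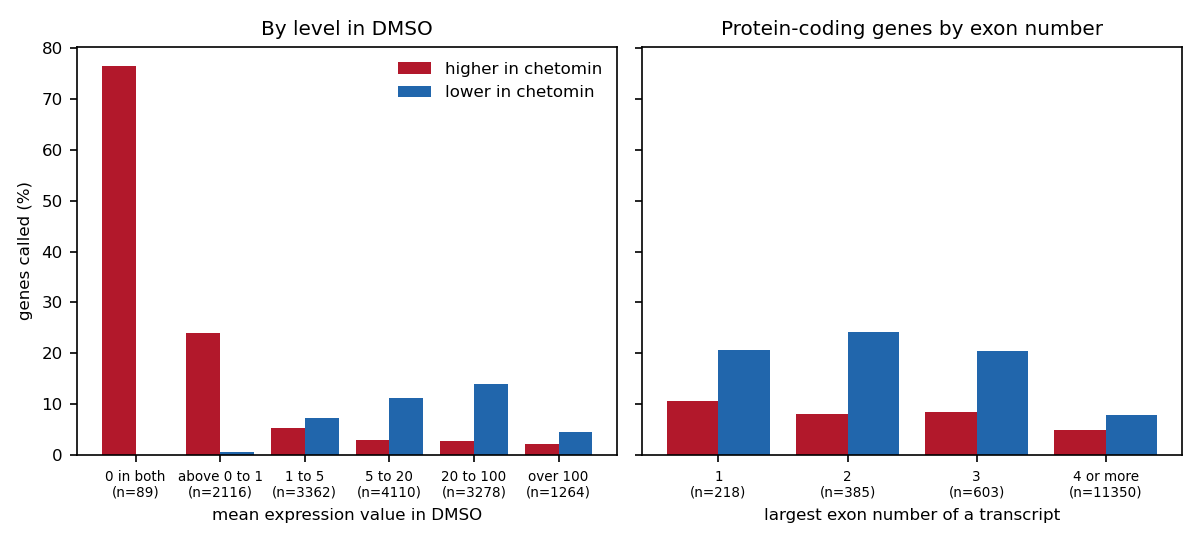
Percent of genes called (y axis) higher (red) and lower (blue) in chetomin than in DMSO, by the mean expression value in DMSO (left) and, for protein-coding genes, by the largest exon number of a transcript (right), with the number of genes under each bar. Genes at 0 in DMSO cannot fall, so their bar (68 of 89 genes) is not comparable with the others; genes above 0 to 1 hold 506 of the 998 rises, and falls are most frequent in genes of 1 to 3 exons (20.4% to 24.2%).

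The sulfide-depleted analog was compared at the same dose and time, in a fit of 6 libraries with DMSO. Against MeS-chetomin, chetomin differed in 4669 genes (32.8%), 1277 higher (8.98%) and 3392 lower (23.9%). With median-of-ratios scaling the split was 1984 higher and 2078 lower, and on the authors' CPM scale 2770 higher and 1833 lower, so the balance of directions rests on the scaling. Genes that led the rises with chetomin stayed low with the analog. MYC and WNT16, which fell against DMSO, had higher values with the analog than in DMSO, which adds to their differences here. HMOX1 had 977 and 963 in chetomin and 17.3 and 19.9 in MeS-chetomin, a log2 difference of 5.63 ± 0.13 (limma adjusted p = 1.24e-06). DUSP2 had 480 and 539 in chetomin and 14.3 and 13.1 in MeS-chetomin (5.12 ± 0.15), and HSPA6 had 19.0 and 22.8 in chetomin and 0.03 and 0.19 in MeS-chetomin (4.30 ± 0.19). MYC had 39.8 and 38.2 in chetomin and 256 and 262 in MeS-chetomin (-2.70 ± 0.12), and WNT16 had 3.45 and 3.70 in chetomin and 34.2 and 33.8 in MeS-chetomin (-2.94 ± 0.18). Every chetomin library lay on 1 side of every MeS-chetomin library for these genes. Lack of overlap was a condition for naming the largest calls here too, so it is part of how such genes were chosen. EP300 was lower in chetomin than in MeS-chetomin, where it had 9.73 and 13.5 (-1.16 ± 0.30, limma adjusted p = 0.0201). CREBBP (-0.99 ± 0.24) and HIF1A (-0.94 ± 0.23) were lower too, although none of the 3 was called against DMSO. The MeS-chetomin values of EP300 also lay above its DMSO values, so this difference does not show a fall against vehicle. The lysine acetyltransferase median lay 0.64 below all genes against MeS-chetomin and 0.06 above all genes against DMSO. Both comparisons use the same chetomin libraries. Leaving out a chetomin or MeS-chetomin library lowered the count of calls to between 1565 and 2155.

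Chaetocin, a related disulfide compound, was compared with chetomin at the same dose and time. Only 109 genes differed (0.767%), 91 higher in chetomin (0.64%) and 18 lower (0.127%). The count was 13 and 11 without chetomin replicates 1 and 2 and 11 and 17 without chaetocin replicates 1 and 2, so single calls rest on all libraries. ARC had 76.0 and 74.7 in chetomin and 4.98 and 4.98 in chaetocin, a log2 difference of 3.67 ± 0.18 (limma adjusted p = 0.000282). NRARP had 73.7 and 75.7 in chetomin and 7.53 and 7.91 in chaetocin (3.12 ± 0.16). DDIT4 had 278 and 282 in chetomin and 34.1 and 38.8 in chaetocin (2.91 ± 0.13), and TRIB3 had 213 and 232 in chetomin and 34.9 and 34.8 in chaetocin (2.64 ± 0.12), so these last were at or below their DMSO values of 71.1 and 68.7 for DDIT4 and 45.1 and 45.5 for TRIB3. HMOX1 was 1.66 ± 0.13 higher in chetomin and NR4A1 1.68 ± 0.14 higher, on the log2 scale. Lower in chetomin were DYNLT2, a dynein light chain gene (-1.48 ± 0.21), RSRP1 (-1.48 ± 0.16), FGFBP1, a carrier of fibroblast growth factors (-1.34 ± 0.21), CCNL1 (-1.29 ± 0.15), the ribosome biogenesis gene UTP3 (-1.18 ± 0.13) and the cell-cycle inhibitor CDKN2D (-1.04 ± 0.16), which had 36.7 and 42.7 in chetomin and 80.2 and 84.3 in chaetocin. For MYC the difference was 0.73 (95% interval 0.43 to 1.03, adjusted p = 0.0595), for EGR1 0.78 (0.40 to 1.17) and for DKK1 0.39 (-0.06 to 0.84), none past the threshold, which does not show that the compounds act alike.

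**Figure D5:**
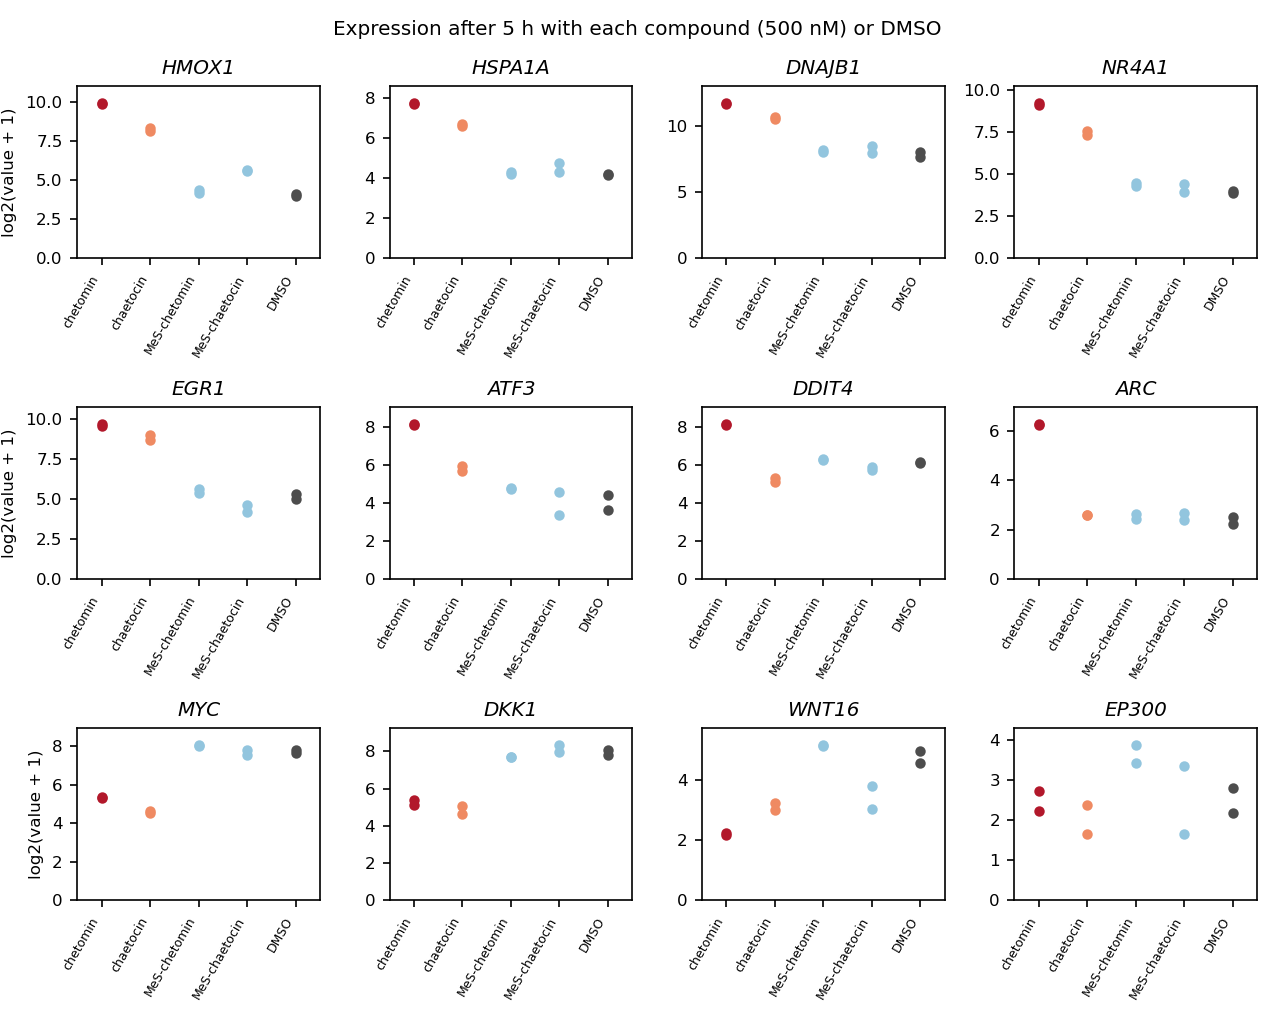
Log2 of the expression value plus 1 (y axis) in the 2 libraries of each group at 5 h for 12 genes, with chetomin left, then chaetocin, MeS-chetomin, MeS-chaetocin and DMSO. HMOX1, HSPA1A, DNAJB1, NR4A1 and EGR1 are higher with chetomin and chaetocin than in the other groups, whereas ARC and DDIT4 are higher with chetomin than in the other 4 groups.

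Markers of other cell types were checked because genes silent in DMSO rose. Of 20 such markers 6 were in the table, where a low gene may be listed only through a group in which it is high, and 3 rose at low values: ALB, the hepatocyte albumin gene, had 2.38 and 3.21 in chetomin, against 0.03 and 0 in DMSO. CD68, a macrophage marker, had 3.51 and 3.03 in chetomin, against 0.20 and 0.72 in DMSO, and CD14, a monocyte marker, had 1.99 and 1.47 in chetomin, against 0.12 and 0.14 in DMSO. Their log2 differences were 1.89, 1.57 and 1.27, and none fell. The call of CD68 ended with the shared spread (0.0682). The summed value of the 6 markers was 16.8 and 13.3 in chetomin, against 2.79 and 5.81 in DMSO. Their part in the results was not tested.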

How the data were processed

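Poly(A) RNA of HCT116 cells was sequenced. The submitters' processing notes name STAR 2.5.2b, RSEM 1.3.3, edgeR and the build GRCh38, without giving the step each served. The deposited 5 h table gives, per the file headers, a value per gene and library, mean CPM per group, a log2 fold change and p-values and q-values by the authors. The authors' per-library values are a normalised signal, divided by transcript length and depth as their ratio to CPM shows, but their header does not name TPM or FPKM, their sums in the 4 libraries of the main comparison lay between 901370 and 1170800 and the read depth is unknown. The rule by which genes were kept in the table is not stated there.

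From these signal values log2(value + 1) was computed and fitted with limma 3.58.1 (limma-trend, R 4.3.3), 4 libraries against DMSO and 6 libraries between compounds, each with DMSO. P-values were adjusted by Benjamini-Hochberg over 14219 genes, and a call is an adjusted p under 0.05. The fit was tested on simulated data. The 54 gene lists and the choice of this comparison were made with earlier results of these data known. Named genes are a fixed set of pathway genes, the 12 largest calls each way at a mean of at least 5 without overlap, up to 4 called members of a list each way or 2 of the highest where none was called, and the 6 largest each way between compounds; members named beyond that were chosen after their values were seen. Of the 14219 genes, 14181 were placed in GENCODE release 29 for type and exons. Replicates are labelled biological, with no note of separate batches, so p-values measure only the spread between them. Numbers of replicates were not treated as pairs. Alternatives were another pseudocount, a filter on low values, median-of-ratios scaling, the authors' CPM scale, a replicate block, a spread shared by 10 libraries, no trend and leaving out each library. Results for some list members are not reported here.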

Additional observations from a re-analysis of the deposited data

How the results depend on the processing

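For chetomin against DMSO the count of 2237 called genes lay between 639 and 3433 when each library was left out, where a lone library is taken to vary like the others, and between 1943 and 2438 under the other alternatives without the block. Against MeS-chetomin the count of 4669 lay between 1565 and 6778 with a library left out. Against chaetocin the count of 109 lay between 11 and 207 with a library left out, and was 60 with a pseudocount of 0.1, 65 on the authors' CPM scale and 184 with a spread shared by the 10 libraries of 5 h. The cause was not tested. Same-numbered chetomin and DMSO libraries deviated with a correlation of 0.049 over 8361 genes, and with the replicate number as a block the counts were 3112 against DMSO, 4641 against MeS-chetomin and 44 against chaetocin; the call of HSPA8 ended with it (0.0659) and those of DUSP6 (0.00517) and TXNRD1 (0.00103) were gained. BCL2L11 had the opposite sign on the authors' CPM scale (-0.35). Of the 186 named genes, 164 of them called, 95 and 91 lost their call without chetomin replicates 1 and 2, 6 and 14 without DMSO replicates 1 and 2, 25 on the authors' CPM scale and 14 with median-of-ratios scaling. The read depth is unknown, so no counting error can be given.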

Other observations

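Immune genes were among those with low DMSO values that rose, chosen here after their values were seen. The table lists 5 immunoglobulin heavy chain constant genes, at 0 to 0.18 in DMSO. Genes this low may be listed only through the groups where they are high, so that all 5 were called higher is a description, beside 7.02% of all genes. IGHA1 had 5.24 and 4.44 in chetomin, against 0.05 and 0.13 in DMSO (log2 difference 2.42), and IGHE had 3.77 and 2.46 in chetomin and was listed at 0 in both DMSO libraries. IL23A, a cytokine subunit, had 9.21 and 11.7 in chetomin, against 0.15 and 0.32 in DMSO, and the octamer-binding factor POU2F2 had 7.43 and 4.31 in chetomin, against 0.12 and 0.17 in DMSO. The neighbouring constant genes are similar in sequence and can share reads. TUBB3, a neuronal tubulin, had 522 and 507 in chetomin, against 68.3 and 58.9 in DMSO, 8.08 times the DMSO mean (limma adjusted p = 0.000101).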
